A study of Mus musculus with 11 samples.

Results

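Pmp22, Pdlim4, Sox4, Serpinf1, Ecscr, Adamts1 and Lrba are 7 genes, of the 27998 genes counted in each library, that were selected by a large measured difference between the Zeb2KO and the WT microglia library of the same data. That contrast therefore describes how the genes were picked and is given here without a test. The spread of the difference over single microglia and over clusters of microglia comes from the same 2 libraries and describes that contrast further. The measurements that the choice did not use are the levels in macrophages (macs) of 4 other tissues.

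Droplet single-cell RNA sequencing with 3′ counting of unique molecular identifiers (UMIs, 1 per captured RNA molecule) had been carried out on macs sorted from brain (microglia), colon (CMs), liver (Kupffer cells, KCs), lung (alveolar macs, AMs) and spleen (SMs). The study asked which genes of resident macs depend on the transcription factor ZEB2. Each tissue gave 1 WT library, from Zeb2fl/fl mice without CRE, and 1 Zeb2KO library, and liver gave a further CRE-negative control from Nr1h3fl/fl mice, so that 11 libraries were available. The labels give the Zeb2KO genotype as Fcgr1-crexZeb2fl/fl in all 5 tissues, whereas the methods section of the paper names Clec4f-cre for KCs and Itgax-cre for AMs, and both groups are called Zeb2KO here. Both alleles of Zeb2 carry loxP sites in the Zeb2fl/fl controls too. The mice were on a C57Bl/6 background, of both sexes and young adults according to the methods, and the controls were littermates. Fcgr1 encodes the receptor CD64, and this CRE is active in other immune cells besides macs. Microglia were sorted as CD45int F4/80+ CD64+ cells. With 1 library per tissue and genotype there was no replicate within a tissue, and the number of mice behind a library is not given in the sources used here.

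The 7 genes encode proteins of different kinds. Pmp22 and Ecscr encode membrane proteins: PMP22 is a tetraspan protein of peripheral myelin, and ECSCR is a surface protein first described in endothelial cells. Serpinf1 and Adamts1 encode secreted proteins: SERPINF1 (pigment epithelium-derived factor) is a serpin without protease inhibitor activity that restrains blood vessel growth, and ADAMTS1 is a metalloprotease that cleaves proteoglycans of the extracellular matrix. Pdlim4 encodes an actin-associated adaptor with a PDZ and a LIM domain, Lrba a large BEACH-domain protein of vesicle traffic, and Sox4 an HMG-box transcription factor. ZEB2, the factor that was deleted, is a zinc-finger protein known mainly as a repressor, which binds E-box motifs of the type CACCTG.

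According to GENCODE M21 on GRCm38/mm10, the build of the deposited counts, all 7 are protein-coding genes. Pmp22 (chr11:63128982-63159547, plus strand), Pdlim4 (chr11:54054928-54069014, minus strand) and Serpinf1 (chr11:75409769-75422701, minus strand) lie on the same chromosome, far from each other. Sox4 (chr13:28948919-28953713, minus strand), Adamts1 (chr16:85793827-85803113, minus strand), Lrba (chr3:86224680-86782692, plus strand) and Ecscr are each on a chromosome of their own. Exons of Sox4 overlap the antisense lincRNA Gm26735, which was counted at 6.89 CPM (UMIs of the gene per 1000000 UMIs) in WT and 0.118 CPM in Zeb2KO microglia, far below Sox4. Exons of Ecscr overlap 1700066B19Rik on the other strand, with 7.95 and 3.90 CPM. Whether the counting used strand is not given in the sources used here, so it is not known here how far the reads of such pairs were kept apart.

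RefSeq promoter windows (250 bases before to 50 after a transcript start, GRCm38.p6) were used for 6 of the 7 genes, Pmp22 with 4 windows and the others with 1 each. No window of Ecscr was searched. The E-box CACCTG, searched on both strands, was found in 1 of these 9 windows, that of Lrba, which held it 2 times, starting 209 and 90 bases before the start. Among all 32851 windows of this length, 20.2% held the motif. The shorter core CACCT, which overlaps the longer motif, was found in 4 of the 9 windows (Lrba, Adamts1, Sox4 and the second window of Pmp22) and in 51.9% of all windows. The windows of Lrba, which alone held the longer motif, and of Pmp22 and Sox4, which did not, are shown to let their letters be compared, at chr3:86224440-86224739 (plus strand), chr11:63131207-63131506 (plus strand) and chr13:28953650-28953949 (minus strand). They read 5′ to 3′ in lower case, with CACCTG or its reverse complement CAGGTG in capitals.
Lrba: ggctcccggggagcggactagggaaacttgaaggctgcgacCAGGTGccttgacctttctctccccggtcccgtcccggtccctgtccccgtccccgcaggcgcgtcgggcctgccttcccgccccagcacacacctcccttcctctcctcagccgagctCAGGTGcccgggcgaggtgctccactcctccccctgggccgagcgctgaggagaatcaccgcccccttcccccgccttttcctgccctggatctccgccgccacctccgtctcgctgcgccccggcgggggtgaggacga
Pmp22, second window: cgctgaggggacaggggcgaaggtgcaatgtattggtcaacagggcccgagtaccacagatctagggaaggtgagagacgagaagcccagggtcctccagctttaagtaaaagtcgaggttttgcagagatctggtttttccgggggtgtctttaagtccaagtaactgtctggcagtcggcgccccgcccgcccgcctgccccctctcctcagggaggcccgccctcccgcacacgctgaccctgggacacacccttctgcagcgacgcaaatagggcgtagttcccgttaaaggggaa
Sox4: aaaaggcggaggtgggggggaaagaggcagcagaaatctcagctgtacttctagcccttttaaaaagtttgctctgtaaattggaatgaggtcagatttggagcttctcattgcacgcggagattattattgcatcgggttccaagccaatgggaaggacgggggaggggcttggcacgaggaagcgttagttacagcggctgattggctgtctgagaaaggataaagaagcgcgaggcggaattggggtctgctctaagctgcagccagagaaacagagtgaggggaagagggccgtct
A match of letters is a description of the window and not a site of binding, and binding was not measured here.

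The deposited tables held between 11133411 UMIs (WT SMs) and 47400786 UMIs (WT CMs) in all. Once outlying cells and contaminating cell types had been taken out, 2830 WT and 3243 Zeb2KO microglia remained, and between 3014 and 6974 cells in each of the other libraries. Levels are CPM, the UMIs of a gene scaled by all UMIs summed over the cells used, with exact Poisson 95% intervals, and these intervals cover counting error only. The median depth was 4202 UMIs per WT and 4955 per Zeb2KO microglial cell. No cluster was left out of the brain libraries. All 13 microglia markers were present in both libraries, summing to 37231 CPM in WT and 20993 CPM in Zeb2KO microglia. While P2ry12 was at 4405 and 3360 CPM and Tmem119 at 2428 and 1869 CPM, 5 of the 13 were at least 2-fold lower in Zeb2KO: Adgrg1 (275 and 15.7 CPM, log2 ratio -4.05), Crybb1 (-1.92), Cx3cr1 (-1.66), Sparc (-1.58) and Fcrls (-1.47). The 10 general mac markers summed to 38300 and 39398 CPM, mostly from C1qa, C1qb and C1qc, and 2 of them were at least 2-fold lower, Lyz2 (332 and 41.7 CPM) and Fcgr1, which encodes the sort marker CD64 (577 and 272 CPM). Per the methods, the Fcgr1-cre allele carries its CRE cassette in the 3′ untranslated region of Fcgr1. The part of this cassette in the 3′ counts of Fcgr1 was not tested. In WT and Zeb2KO, Fcgr1 was at 179 and 112 CPM in CMs and 78.3 and 53.0 CPM in SMs. It was at 330 and 327 CPM in KCs and 24.8 and 35.4 CPM in AMs. The Zeb2 counts do not check the deletion, because the 3′ end of the transcript is kept by the recombined allele, and they were 475 CPM in WT and 1747 CPM in Zeb2KO microglia.

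In microglia, the 7 genes stood between 124 and 439 CPM in the WT library and between 3.07 and 21.9 CPM in the Zeb2KO library. Of the 5922 genes at or above 20 CPM in either library, 4.07% were at least 2-fold lower in Zeb2KO microglia on the scale log2(CPM + 1), as were all 7 genes by their choice. Their places among the 5922 genes, counted from the lowest log2 ratio, ran from 1 for Pmp22 to 25 for Serpinf1.

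Of the 2 membrane protein genes, Pmp22 had 4634 UMIs in WT microglia (376 CPM, 95% interval 365 to 387) and 52 UMIs in Zeb2KO microglia (3.07 CPM, 2.29 to 4.03). Ecscr had the highest WT level of the 7, with 439 CPM (427 to 450) against 21.9 CPM (19.7 to 24.2). The WT level was 122-fold that of Zeb2KO for Pmp22 (93.1 to 164) and 20.1-fold for Ecscr (18.1 to 22.4), so that Ecscr kept a larger part of its level.

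The secreted protein gene Serpinf1 had 124 CPM (118 to 131) in WT and 10.0 CPM (8.59 to 11.7) in Zeb2KO microglia, a ratio of 12.4-fold (10.6 to 14.6). Adamts1 had 307 CPM (297 to 317) and 21.3 CPM (19.2 to 23.6), a ratio of 14.4-fold (12.9 to 16.1). Sox4, the transcription factor gene, had 310 CPM (299.8 to 319.5) and 14.9 CPM (13.1 to 16.8), or 20.8-fold (18.3 to 23.7). These values describe the contrast on which the genes were picked.

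Pdlim4 had 154 CPM (147 to 161) in WT and 5.49 CPM (4.43 to 6.73) in Zeb2KO microglia, or 28.0-fold (22.8 to 34.9). Lrba had 202 CPM (194 to 209.6) and 15.9 CPM (14.1 to 17.9), or 12.7-fold (11.2 to 14.4). On the log2(CPM + 1) scale the 7 differences had a median of -4.27 and ran from -6.53 for Pmp22 to -3.50 for Serpinf1.

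**Figure D1:**
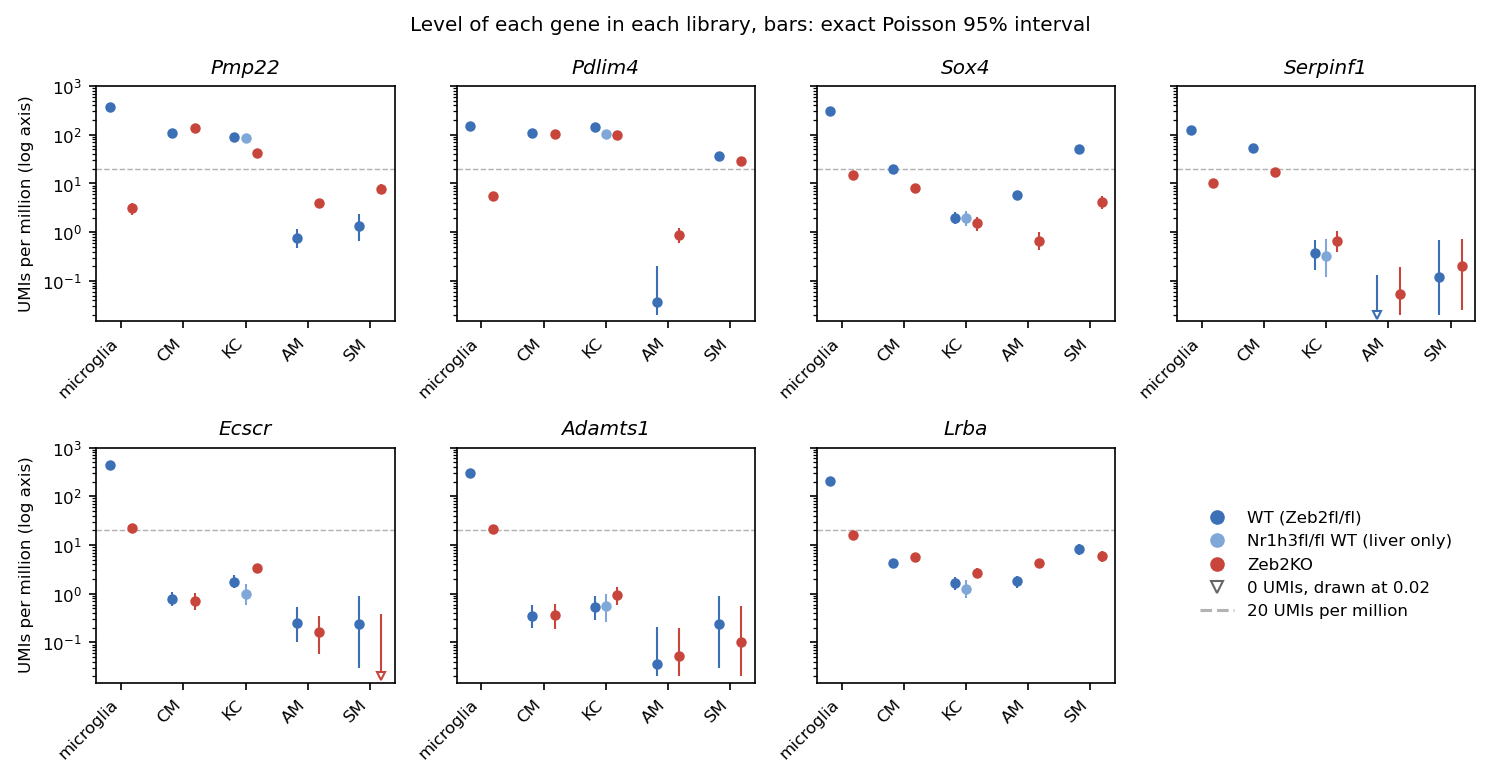
Level of each of the 7 genes (CPM, log axis) in each of the 11 libraries, by tissue; blue points are WT, light blue is the Nr1h3fl/fl WT liver library, red points are Zeb2KO, and bars are exact Poisson 95% intervals (values and lower ends under 0.02 are drawn at 0.02). In microglia all 7 genes stood at or above 124 CPM in WT and at or below 21.9 CPM in Zeb2KO, while Ecscr, Adamts1 and Lrba stayed under 10 CPM in every other tissue.

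The level of a library can be lower because all cells hold fewer molecules or because fewer cells hold them, and single cells were therefore compared at equal depth. Each microglial cell was thinned to 2000 UMIs, which left out 73 WT and 23 Zeb2KO cells of lower depth. After thinning, Pmp22 was seen in 49.7% of WT cells (47.8 to 51.6, exact binomial 95% interval) and in 0.466% of Zeb2KO cells (0.261 to 0.767). Without thinning these shares were 72.3% and 1.14%. Ecscr was seen in 54.6% of thinned WT cells and 3.79% of Zeb2KO cells, Sox4 in 33.7% and 2.92%, and Lrba in 32.0% and 3.51%. Pdlim4 was seen in 26.3% and 1.24%, Serpinf1 in 20.3% and 1.89%, and Adamts1 in 17.99% and 1.77%. Thus, the share of cells with a UMI was lower for each gene, and 1.77% to 3.79% of Zeb2KO cells still gave a UMI of Serpinf1, Adamts1, Sox4, Lrba or Ecscr. These libraries held no cluster of another cell type from which the share given by free RNA could be read, so how much of the remaining UMIs came from such RNA was not tested.

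Added over the 7 genes, thinned WT microglia had a median of 3 UMIs and Zeb2KO microglia a median of 0. There was no UMI of any of the 7 genes in 6.02% of WT cells (166 of 2757) and in 85.8% of Zeb2KO cells (2764 of 3220). At least 3 UMIs were seen in 64.0% of WT cells, and in 40 of the 3220 Zeb2KO cells (1.24%). At least 4 of the 7 genes were seen together in 17.7% of WT cells (488 cells) and in 0 Zeb2KO cells. The lower counts were thus spread over nearly the whole Zeb2KO library, with a small overlap between the 2 distributions. The mean was 3.85 UMIs per thinned WT cell and 0.203 per Zeb2KO cell. A library mean this low already leaves room for few cells at the WT level. These counts therefore describe the contrast on which the genes were picked and are no separate evidence.

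**Figure D2:**
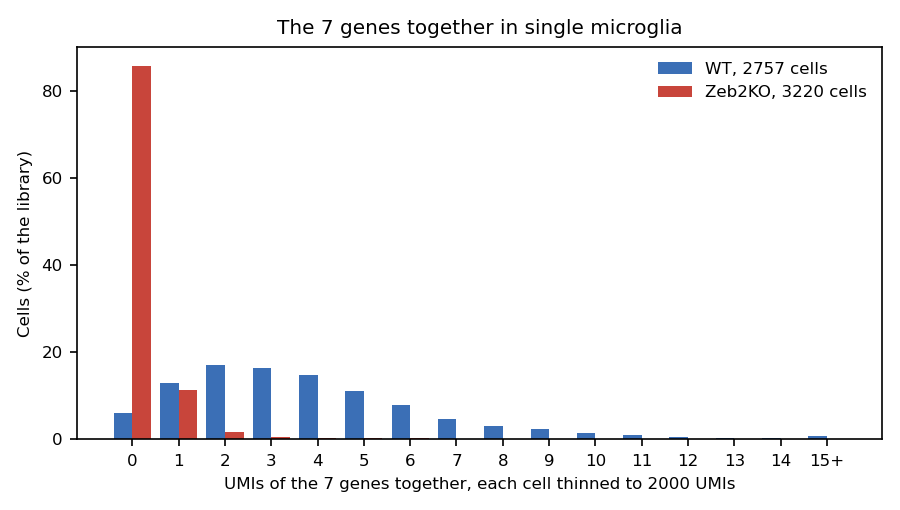
UMIs of the 7 genes together per cell after thinning to 2000 UMIs (horizontal axis, 15 or more in the last bin) against the share of cells in the WT (blue) and Zeb2KO (red) microglia library in percent (vertical axis, starting at 0). The Zeb2KO cells pile up at 0 UMIs (85.8%) and the WT cells spread around a median of 3 UMIs.

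The cells of each library were also cut into 4 equal classes by UMIs, which were not matched in depth between the libraries (median 2831.5 to 5876 UMIs in WT and 3272 to 7356 in Zeb2KO). Over these classes, Pmp22 ran from 345 to 458 CPM in WT and from 1.17 to 4.48 CPM in Zeb2KO microglia. Ecscr ran from 390 to 477 CPM and from 18.7 to 24.2 CPM, and Adamts1 from 289.5 to 341 CPM and from 10.3 to 35.0 CPM. For none of the 7 genes did these classes of the libraries overlap.

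Clustering of both brain libraries together, with the 7 genes left out of the variable genes, gave 8 clusters, and 7 of these were made up to at least 90% of cells of 1 library. The 2 clusters of mainly WT cells held 1435 and 1296 WT cells, and the largest clusters of Zeb2KO cells held 1452, 986, 557 and 163. A further cluster was mixed, with 80 WT and 49 Zeb2KO cells, and its markers of border-associated macs, such as Pf4 and Ms4a7, summed to 232 and 230.4 CPM against 5.70 to 9.80 CPM in the 5 clusters with over 500 cells. Over clusters with at least 50 cells of a library, Pmp22 ran from 340 to 738 CPM in the 3 WT groups of cells and from 0 to 2.53 CPM in the 4 Zeb2KO groups. Ecscr ran from 287 to 528 CPM and from 14.2 to 26.4 CPM, Sox4 from 282 to 342 CPM and from 6.72 to 19.4 CPM, and Pdlim4 from 135 to 163 CPM and from 4.48 to 6.33 CPM. Serpinf1 ran from 78.0 to 151 CPM and from 7.91 to 15.7 CPM, and Lrba, with the narrowest gap, from 59.6 to 241 CPM and from 11.2 to 20.5 CPM. The ranges of WT and Zeb2KO clusters did not overlap for any of the 7 genes, and this also held at the coarser and the finer clustering (resolution 0.4 and 1.6). Genotype and cluster were nearly the same split here, so a gap between the clusters largely repeats that between the libraries. The clusters describe how the difference was spread over the Zeb2KO cells, and no test can be made of them.

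In the mixed cluster, the 80 WT cells had 2171 CPM summed over the 7 genes (2035 to 2314), and the 49 Zeb2KO cells had 61.4 CPM (37.5 to 94.9). Pmp22 was at 738 CPM in the WT and 15.4 CPM in the Zeb2KO cells of this cluster, and Lrba at 59.6 and 9.22 CPM (3 UMIs). Whether the WT and Zeb2KO cells of this cluster were of 1 type was not tested. Its mast cell or basophil markers stood above the other clusters (mean log2 fold 4.24), as did those of border-associated macs (3.85), and the microglia markers summed to 28492 CPM in its WT and 10928 CPM in its Zeb2KO cells. Over the whole libraries, the basophil gene Mcpt8 had 0 UMIs in WT and 45 in Zeb2KO. In the 24 Zeb2KO cells of a dividing cluster the 7 genes summed to 198 CPM.

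A small number of Zeb2KO cells stood apart from the rest. In the 2 clusters of mainly WT cells there were 12 Zeb2KO cells (0.370% of the library), and all 12 held UMIs of the 7 genes, 68 in total and between 1 and 10 per cell. Their summed level was 1123 CPM (872 to 1424), against 89.4 CPM (84.9 to 94.1) in the 3182 Zeb2KO cells of the other single-library clusters and 1907 CPM in the WT cells of those 2 clusters. Their Zeb2 level was 479 CPM (321 to 688), near the 477 CPM of the WT cells beside them, while the other Zeb2KO cells had 1757 CPM. None of the 12 cell barcodes occurred in the other 10 libraries, where 6.17% of all barcodes of the Zeb2KO brain library and 7.07% of those of the WT brain library occurred. Adamts1 had no UMI in these 12 cells, while Pmp22 had 16 of the 52 UMIs of the library there. Without them, as computed after these cells had been seen, Pmp22 was at 2.13 CPM (1.495 to 2.96), and its WT level was 176-fold that of Zeb2KO in place of 122-fold, while the folds of the other 6 genes ran from 12.6 to 29.5. In the other direction, 19 WT cells lay in clusters of mainly Zeb2KO cells, most of them in an interferon-responsive cluster led by Ifit1 and Rsad2, and they had 1089.7 CPM of the 7 genes (886 to 1327) and 561 CPM of Zeb2. Of these 19 barcodes, 4 occurred in other libraries, 2 of them in the Zeb2KO brain library. The 12 Zeb2KO cells thus had levels of the 7 genes and of Zeb2 closer to those of WT cells than to those of their own library, and without them the Zeb2KO library still had 89.4 CPM outside the mixed cluster.

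**Figure D3:**
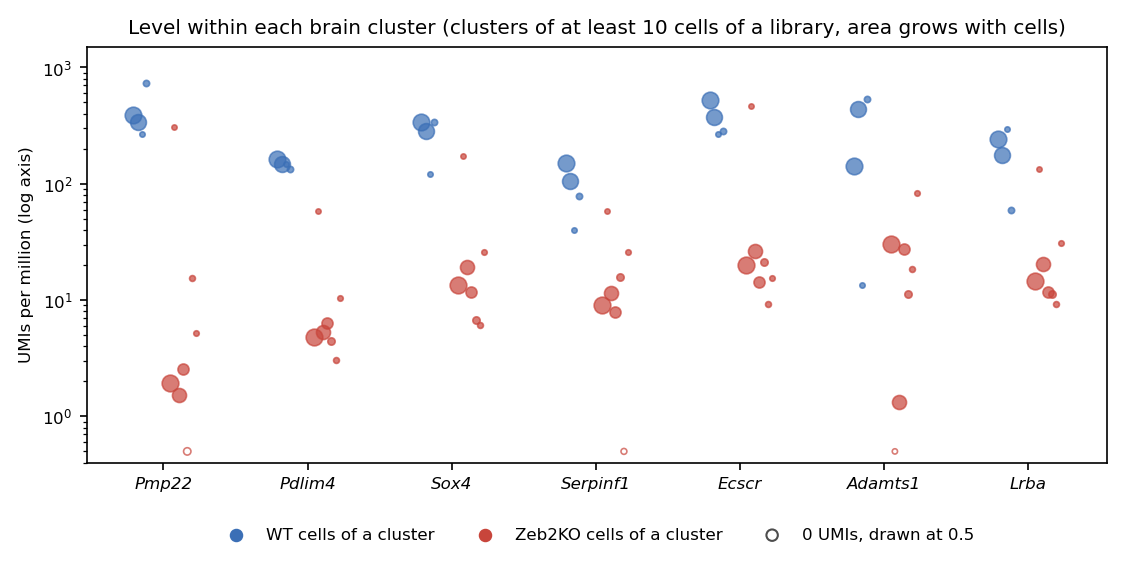
Level of each gene (CPM, log axis) within each cluster of the brain libraries that held at least 10 cells of a library; blue points are the WT and red points the Zeb2KO cells of a cluster, the area grows with the number of cells, and open points had 0 UMIs and are drawn at 0.5. The larger blue and red points lie apart for all 7 genes, and the small red points near WT height for Pmp22, Sox4, Ecscr and Lrba are 10 Zeb2KO cells in a cluster of mainly WT cells.

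The UMIs left in Zeb2KO microglia were concentrated in few cells for some of the genes. The 10 cells with most Pmp22 held 48.1% of its 52 UMIs, and the 10 cells with most Adamts1 held 43.2% of its 361 UMIs, up to 21 in 1 cell. The share in the 10 highest cells also depends on the number of UMIs. Against a random scatter, Adamts1 was seen in 2.41% of Zeb2KO cells where 10.5% would be expected, Serpinf1 in 4.96% (5.09%) and Lrba in 7.49% (7.92%). Pmp22 was seen in 1.14% (1.59%), Pdlim4 in 2.50% (2.82%), Sox4 in 6.07% (7.44%) and Ecscr in 8.48% (10.7%).

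Adamts1 and Sox4 were unevenly spread in WT microglia. Only 21.6% of unthinned WT cells had a UMI of Adamts1, where 71.3% would be expected if its 1.34 UMIs per cell were scattered at random, and 1 cell held 49. For Sox4 it was 50.5% against 71.6%, with up to 38 UMIs in a cell, while the other 5 genes were closer to such a scatter, such as Serpinf1 (34.6% against 40.9%) and Pdlim4 (45.5% against 47.7%). The level of Adamts1 was 142 CPM in the WT cluster of 1435 cells and 438 CPM in the WT cluster of 1296 cells. Genes that respond to tissue dissociation (Fos, Jun, Egr1, Atf3, Dusp1, Hspa1a and Hspa1b) summed to 5493 and 30540 CPM in these 2 clusters, and haemoglobin and other erythroid genes to 64.8 and 1129 CPM. Among Zeb2KO clusters, Adamts1 was at 1.32 CPM where the dissociation genes were at 2737 CPM (986 cells), at 30.4 CPM where they were at 15424 CPM (1452 cells) and at 27.5 CPM where they were at 23904 CPM (557 cells). The order did not hold over all clusters, since Adamts1 was at 532 CPM in the WT cells of the mixed cluster, with 11216 CPM of the dissociation genes, and at 83.4 CPM in the dividing Zeb2KO cluster, with 14956 CPM. Between the whole libraries the list was at 18615 CPM in WT and 13245 CPM in Zeb2KO microglia, and none of its 7 genes was at least 2-fold lower. Its part in the difference was not tested.

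Among the other marker lists, erythroid genes stood at 609 CPM in WT and 39.9 CPM in Zeb2KO microglia, with 4 of 8 at least 2-fold lower (Hbb-bs 319 and 26.5 CPM, Hba-a1 139 and 5.49 CPM, Hba-a2 101 and 4.96 CPM). Cd79b made up most of the B cell list (56.2 and 23.3 CPM), Ccl5 of the T or NK cell list (3.57 and 75.7 CPM), Plac8 of the monocyte list (2.92 and 36.0 CPM) and Ttr of the hepatocyte list (0.405 and 59.9 CPM), while Cd3e and Apoa1 were at 0 in both. Neutrophil markers stood at 196 and 363 CPM, nearly all of it from Csf3r (195.6 and 361.5 CPM). Of the oligodendrocyte list, Mag was at 32.7 and 1.18 CPM and Mbp at 10.1 and 29.8 CPM, and astrocyte and neuron markers summed to at most 2.59 CPM in either library. The lists for dendritic cells (2.43 and 13.2 CPM), mast cells or basophils (0.0811 and 6.56 CPM), fibroblasts (4.38 and 0.0591 CPM) and endothelium (11.2 and 14.4 CPM) were low in both libraries. Their parts in the result were not tested.

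Relatives of the 7 genes were compared in the same microglia libraries. Of the 7 relatives of PMP22, Emp3 alone reached 20 CPM in microglia, at 65.5 CPM in WT and 26.5 CPM in Zeb2KO (log2 ratio -1.27). Of the 14 other serpins compared, 2 reached 20 CPM, and 1 of these 2 was at least 2-fold lower (median log2 ratio -1.80). The serpin that was not lower, Serpine2 (protease nexin), was at 604 and 662 CPM (0.13). The PDZ-LIM genes Pdlim2 and Pdlim5 had ratios of 0.99 and -0.51. None of the 18 other SOX genes and none of the 23 other ADAMTS genes reached 20 CPM, and their sums were 4.22 and 2.19 CPM, and 18.1 and 12.2 CPM. Of the 8 BEACH-domain genes, 6 reached 20 CPM, and none of these 6 was at least 2-fold lower, with Lyst at 6.16 and 27.5 CPM, Wdfy4 at 17.5 and 57.8 CPM and Wdr81 at 23.0 and 14.5 CPM. Nbea, a BEACH-domain relative of Lrba that stayed under 20 CPM and is named after its values were seen, had 158 UMIs (12.8 CPM) in WT and 3 UMIs (0.177 CPM) in Zeb2KO microglia.

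In WT macs of the other tissues the 7 genes split by where else they were present. WT microglia had the highest level of each of the 7 genes among the 6 CRE-negative libraries, without overlap of the counting intervals. The choice used the WT microglia library and favours a high level there, so this rank is no separate result. The share of all genes that were highest in that library is not given here. For Pdlim4 the lead over WT KCs was 1.09-fold. Pmp22 followed at 110.2 CPM in CMs, 89.3 CPM in KCs (85.1 CPM in Nr1h3fl/fl WT, an overlapping interval), 1.34 CPM in SMs and 0.765 CPM in AMs. Pdlim4 was close to its microglial level in liver and colon and lower in spleen, at 141 CPM in KCs, 108 CPM in CMs, 104 CPM in Nr1h3fl/fl WT KCs and 36.9 CPM in SMs, but had 1 UMI in all WT AMs (0.0364 CPM). Sox4 followed at 51.2 CPM in SMs, 20.1 CPM in CMs, 5.83 CPM in AMs and 1.98 CPM in KCs. Serpinf1 was shared with CMs (52.2 CPM) and stood at or under 0.371 CPM in KCs, SMs and AMs, where 0 UMIs in WT AMs allow up to 0.109 CPM at a limit of 3 counts. Lrba was at most 8.15 CPM (SMs), Ecscr at most 1.77 CPM (KCs) and Adamts1 at most 0.547 CPM (Nr1h3fl/fl WT KCs). Hence, Ecscr, Adamts1 and Lrba stood at or below 8.15 CPM in WT macs of the other 4 tissues, whereas Pmp22, Pdlim4, Sox4 and Serpinf1 reached 20 CPM in at least 1 of them.

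Many UMIs of Ecscr and Adamts1 in the colon and liver sorts lay in other cell types. Of the Ecscr UMIs of colon cells that passed the filter, 83.8% (WT) and 84.2% (Zeb2KO) lay in the clusters left out, and of the Adamts1 UMIs 91.2% and 90.6%. In the WT, Zeb2KO and Nr1h3fl/fl liver libraries the shares were 71.1%, 81.3% and 50% for Ecscr and 51.9%, 83.0% and 47.4% for Adamts1. In the left-out endothelial cluster of the liver, Ecscr was at 140.0 CPM in 109 WT cells and 128 CPM in 383 Zeb2KO cells. The fibroblast cluster of the colon held Pmp22 at 610 and 533 CPM, Sox4 at 139 and 96.7 CPM and Adamts1 at 63.5 and 72.8 CPM. Pmp22 was at 85.9 CPM in WT and 26.9 CPM in Zeb2KO cells of the liver endothelial cluster (65 and 77 UMIs), and Adamts1 at 18.5 and 40.5 CPM (14 and 116 UMIs). The difference in Pmp22 was not particular to endothelium, since the left-out liver B cells had 66.2 and 21.6 CPM (46 and 14 UMIs). How much of these UMIs came from RNA of KCs was not tested.

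The paper describes cells that kept 1 Zeb2 allele (Zeb2+/-, presumed in colon and spleen) in the CRE-positive samples of every organ except the brain. Outside the brain, whole Zeb2KO libraries thus mix such cells with deleted ones, and the tissues are not compared at equal deletion. Fewer genes of the 7 could be compared between Zeb2KO and WT in the other tissues, because few reached 20 CPM. In CMs 2 of the 4 genes that did so were at least 2-fold lower (Serpinf1 and Sox4), against 0.489% of all genes tested. In SMs it was 1 of 2 (Sox4, against 0.81%), in KCs 1 of 2 (Pmp22, against 1.15%), and in AMs none of the genes reached 20 CPM (7.33% of all genes were lower, where the median log2 ratio of all genes tested was -0.31).

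Serpinf1 was at 52.2 CPM (50.1 to 54.4) in WT and 17.1 CPM (15.7 to 18.4) in Zeb2KO CMs, a log2 ratio of -1.56, and it was seen in 32.3% and 12.99% of cells. It was lower in the Zeb2KO cells of 9 of 9 clusters that held at least 50 cells of both libraries, with 19.6 to 68.9 CPM in the WT and 6.31 to 30.2 CPM in the Zeb2KO cells of these clusters. The difference was thus spread over the CM clusters, at a smaller size in the whole library than in microglia. Of Zeb2KO CMs, 23.1% lay in clusters whose share of that library was at least 9 times that of the WT library. Serpinf1 was at 8.81 CPM there and at 19.5 CPM in the remaining Zeb2KO cells. Serpinf1 was also made by the left-out fibroblasts of the colon, at 199 and 146 CPM.

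Sox4 was at 20.1 CPM (18.8 to 21.5) in WT and 8.03 CPM (7.14 to 9.01) in Zeb2KO CMs (log2 ratio -1.23). In SMs it was at 51.2 CPM (46.4 to 56.3) and 4.10 CPM (2.93 to 5.58), a log2 ratio of -3.36 place 3 from the lowest among 6174 genes tested there. In AMs, at low counts, it had 160 UMIs in WT (5.83 CPM) and 25 UMIs in Zeb2KO (0.671 CPM), and in KCs 48 and 39 UMIs (1.98 and 1.52 CPM). Of the 4 tissues that the choice did not use, the counting interval of the fold lay under 1 in CMs, AMs and SMs and included 1 in KCs (0.491 to 1.20). In KCs the log2 ratio of -0.24 turned to 0.07 with all barcodes and to 0.04 with the other cell types kept. These intervals cover counting error only, so they cannot sort the tissues into changed and unchanged ones. Most Zeb2KO SMs (75.6%) lay in clusters whose share of that library was at least 9 times that of the WT library, with Sox4 at 3.11 CPM, against 7.81 CPM in the remaining cells. Sox4 was among the top 10 genes of an SM cluster, beside the dissociation genes Fos, Atf3 and Dusp1. That cluster held 28.4% of the filtered WT and 1.47% of the filtered Zeb2KO spleen cells. The dissociation genes summed to 5429 CPM in WT and 2880 CPM in Zeb2KO SMs, and their part in the difference of Sox4 was not tested. Within SMs Sox4 was lower in 4 of 4 clusters with at least 50 cells of both libraries, from 68.0 against 15.6 CPM to 19.9 against 1.49 CPM. Of these, 1 was led by the B cell genes Fcer2a and Pax5 (60.3 and 18.1 CPM), and it had not met the limits for being left out. The Zeb2KO levels rest on few counts, since these clusters held 52, 73, 336 and 138 Zeb2KO cells. The whole Zeb2KO SM library had 40 UMIs of Sox4. Within CMs Sox4 was lower in 7 of 9 shared clusters and higher in a Lyve1-expressing cluster (2.26 and 10.0 CPM) and a dividing cluster (7.08 and 8.28 CPM). The WT level in the Lyve1-expressing cluster rests on few UMIs, from 169 cells.

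Pmp22 was at 89.3 CPM (85.5 to 93.1) in WT and 41.6 CPM (39.2 to 44.2) in Zeb2KO KCs, a log2 ratio of -1.08. Against the Nr1h3fl/fl WT library the ratio was -1.01, with 3.97% of all genes lower in that comparison, and between the 2 CRE-negative liver libraries it was -0.07, with 0.829% of genes lower. In Zeb2KO KCs it was at 31.6 CPM in clusters whose share of the Zeb2KO library was at least 9 times that of the WT library (77.4% of its cells) and at 72.7 CPM in the rest. The former include a cluster of 528 Zeb2KO cells led by Cx3cr1 and Ccr2, genes that mark the Zeb2+/- putative monocyte-derived KCs of the paper. The 31.6 CPM is therefore not the level of deleted KCs alone. Over Zeb2KO KC clusters with at least 50 cells, Pmp22 ran from 9.04 to 146 CPM. It was lower in 3 of 5 shared clusters, most in the dividing cluster (84.2 and 43.0 CPM), while a cluster led by the endothelial genes Adgrf5 and Ptprb, which had not met the limits for being left out, had 88.6 and 85.6 CPM. In the whole CM libraries Pmp22 stood the other way, at 110.2 CPM (107 to 113) in WT and 138 CPM (134 to 142) in Zeb2KO. It was higher in 8 of 9 shared clusters, from near ties (314 and 319 CPM) to 37.8 against 85.2 CPM. The shares of cells per cluster also differed between the 2 CM libraries, and their part in the whole-library difference was not tested. By the same 9-fold rule, 23.1% of Zeb2KO CMs lay in clusters apart from WT. Pmp22 was at 47.7 CPM there and at 164.7 CPM in the remaining Zeb2KO cells. In the Ms4a1-expressing cluster among those apart, Pmp22 was low in both libraries (34.9 CPM in 57 WT and 38.7 CPM in 756 Zeb2KO cells). In AMs it had 21 UMIs in WT and 151 in Zeb2KO (0.765 and 4.05 CPM), and in SMs 11 and 74 (1.34 and 7.59 CPM). In the whole libraries the direction of Pmp22 thus differed between tissues, and no other tissue had as large a difference as microglia. Zeb2+/- cells, which the paper describes in every organ except the brain, are part of these whole-library values.

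Pdlim4 was at 108 and 103 CPM in CMs, at 141 and 97.5 CPM in KCs and at 36.9 and 28.7 CPM in SMs, with log2 ratios of -0.08, -0.53 and -0.35. In KCs the difference between the 2 CRE-negative libraries (-0.44) was nearly as large. In CMs it was lower in 4 of 9 shared clusters. In CM clusters whose share of the Zeb2KO library was at least 9 times that of WT, Pdlim4 was at 47.9 CPM. It was at 119 CPM in the remaining Zeb2KO CMs. The Ms4a1-expressing cluster had Pdlim4 at 60.0 CPM in WT and 36.6 CPM in Zeb2KO cells. Lrba had log2 ratios between -0.40 (SMs) and 0.91 (AMs, 1.79 and 4.24 CPM), all at or below 8.15 CPM. Ecscr and Adamts1 were at or below 3.32 CPM in the Zeb2KO and WT libraries of the 4 tissues, all under the floor of 20 CPM for a call. The fold of Ecscr in KCs (85 against 43 UMIs) was 1.87 with an interval of 1.28 to 2.77.

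**Figure D4:**
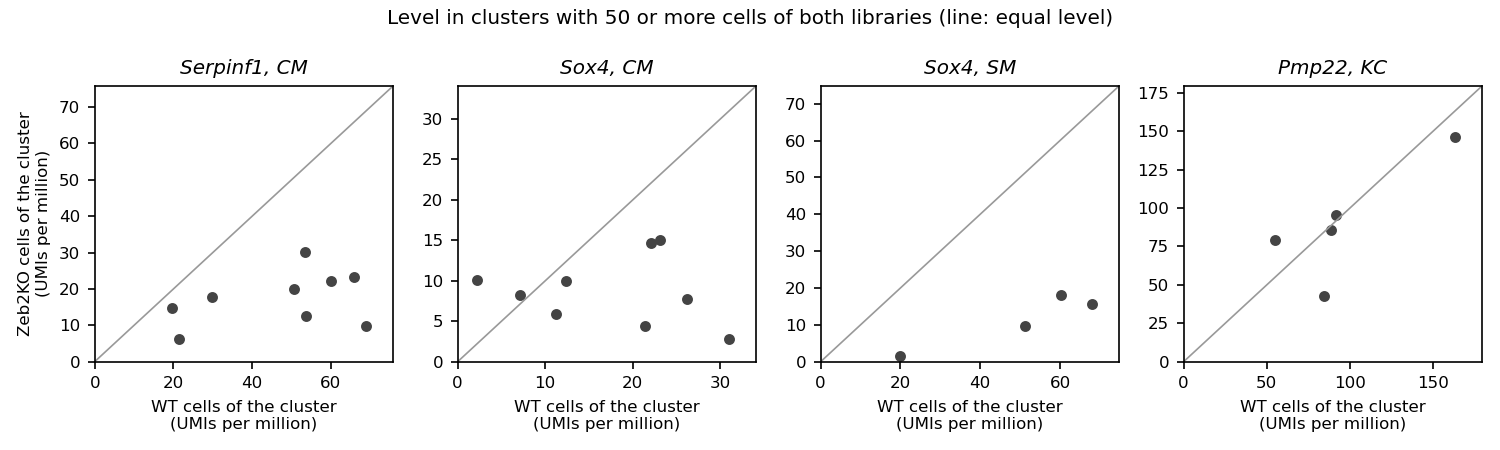
Level in the WT cells (horizontal axis) and the Zeb2KO cells (vertical axis) of each cluster with at least 50 cells of both libraries, in CPM on linear axes, for Serpinf1 and Sox4 in CMs, Sox4 in SMs and Pmp22 in KCs; the line marks equal levels. All 9 points of Serpinf1 in CMs and all 4 of Sox4 in SMs lie under the line, whereas those of Pmp22 in KCs lie on both sides. The Zeb2KO levels of Sox4 in SMs rest on few UMIs (40 in the whole library).

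Whether the 7 genes shift with Zeb2 outside the brain was tested over the 4 pairs that the choice did not use (CMs, KCs, AMs and SMs), with edgeR's quasi-likelihood F test on summed UMIs and the tissue as a block. Of 12351 genes tested, 0% had an adjusted p under 0.05, while 9.89% (1221 genes) had an unadjusted p under 0.05, so the test called none of the 7 genes. Serpinf1 and Adamts1 did not pass its filter on low counts. Sox4 had a log2 change of -2.07 (SE 0.557, 95% interval -3.44 to -0.69), was lower in 4 of 4 pairs, and had an unadjusted p of 0.0108 and an adjusted p of 0.367 by edgeR. DESeq2 with the same design called Sox4 (log2 change -2.07, adjusted p 0.00790), among 0.68% of genes called lower and 311 called in all. The edgeR intervals of the other genes tested were wide: -0.91 to 2.43 for Pmp22 (log2 change 0.76), -1.17 to 1.24 for Pdlim4 (0.04) and -0.29 to 1.34 for Lrba (0.53). Ecscr had a log2 change of 0.05 (-1.21 to 1.31).

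Over the 11 libraries, the levels of Ecscr and Adamts1 followed each other most closely among the 7 genes (Pearson r 0.990 of log2(CPM + 1)), and those of Pmp22 and Pdlim4 had r 0.830. These values describe 11 points that share tissues and include the 2 microglia libraries on which the genes were picked, and outside these Ecscr and Adamts1 were at or below 3.32 CPM. Over 2757 single WT microglia thinned to 2000 UMIs, r between Ecscr and Adamts1 was -0.02. Among 8023 other genes at or above 20 CPM in at least 1 library, those most like each gene were Plxna4, Slc31a1 and Snrnp35 for Pmp22 (r 0.887 to 0.892), and Sult1a1 and Cyp27a1 for Pdlim4 (0.961 and 0.957). They were Paip2, Blmh and Vbp1 for Sox4 (r up to 0.964), Rapsn, Chst7 and Zfyve21 for Serpinf1 (0.965 to 0.987), and Nsfl1c, Cnot8 and Wbp2 for Lrba (0.947 to 0.956). For Adamts1 they were Gp9, Ecscr and Cfap74 (0.989 to 0.993), and for Ecscr Adamts1, Marc2 and Cfap74 (0.969 to 0.990). Of these genes, Gp9 was at 91.1 CPM in WT and 12.3 CPM in Zeb2KO microglia, Rapsn at 32.7 and 4.49 CPM and Plxna4 at 25.5 and 1.42 CPM, whereas Paip2 (173 and 134 CPM) and Marc2 (166 and 136 CPM) differed little.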

How the data were processed

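UMI counts per gene and cell barcode were deposited for 11 libraries. Per the labels and methods, the authors made these counts with Cell Ranger on mm10, KCs and AMs being sequenced on another instrument than microglia, CMs and SMs. The deposited counts were whole numbers over 27998 genes, 11133411 to 47400786 per library, and were not normalised. The 7 genes, the marker and family lists and the tests were chosen with earlier results of these data known.

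Barcodes were dropped when log UMIs or log genes lay more than 3 median absolute deviations away from the library median, or mitochondrial percent that far above it. Cells of a tissue were clustered in scanpy 1.11.5 (leidenalg 0.10.2; 2000 variable genes without the 7 genes, 30 components, 15 neighbours, resolution 0.8). Clusters counted as other cell types, and were not used, if a marker list stood a mean log2 fold of 2 or more above the rest (1 or more if 2 markers were among the top 10 genes), 3 or more markers were seen in 20% of cells, macrophage markers stood lower than elsewhere and under 25% of each library was in it. This took away 0% of microglia to 22.1% of WT SMs. No doublet caller was run. Libraries shared at most 1.45% of the barcodes of the smaller library.

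UMIs were summed per library and given as CPM. A gene was called lower at a log2 ratio of CPM plus 1 of -1 or less and at 20 CPM or more in the higher library. Cells are not replicates, so no test was made within a tissue. The test over 4 pairs used edgeR 4.0.16 (R 4.3.3; TMM, filterByExpr, Benjamini-Hochberg over all genes tested) with the tissue as a block, and DESeq2 1.42.0 as an alternative. It was run on simulated counts first, and that outcome is not given here. Named genes were the 7 genes, Zeb2, per family list up to 3 genes at 20 CPM or more with the largest log2 ratios in microglia, the most abundant genes of marker lists that differed 2-fold, and the 3 genes most like each of the 7. Gene positions are from GENCODE M21 and promoter windows from RefSeq, both on GRCm38. No window of Ecscr was used here. Results for some genes that the rule names are not reported here. Other settings are compared in the closing section.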

Additional observations from a re-analysis of the deposited data

Results flagged for a closer look

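Pmp22, Pdlim4, Ecscr and Lrba stood lower in Zeb2KO than in WT microglia and higher in Zeb2KO than in WT macs of some other tissues. They were flagged because the counting interval of the fold lay under 1 in microglia, as their choice made it, and above 1 in another tissue. Each tissue had 1 library per genotype, so these differences between tissues were not tested.

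The Zeb2KO level of Pmp22 was 1.25-fold that of WT in CMs, 5.29-fold in AMs and 5.67-fold in SMs, against 0.00818-fold in microglia. The 23.1% of Zeb2KO CMs in clusters apart from WT stood at 47.7 CPM, under the 110.2 CPM of WT CMs. The values in AMs and SMs rest on 21 against 151 UMIs and on 11 against 74 UMIs, while that in CMs rests on 4739 against 5019 UMIs.

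The Zeb2KO level of Pdlim4 in AMs was 23.6-fold that of WT, from 32 UMIs against 1, with a counting interval of 3.94 to 959, and 0.0357-fold in microglia. That of Ecscr in KCs was 1.87-fold (85 against 43 UMIs), against 0.0498-fold in microglia, and 81.3% of the Ecscr UMIs of the filtered Zeb2KO liver cells lay in clusters left out as other cell types.

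The Zeb2KO level of Lrba was 1.33-fold that of WT in CMs, 1.63-fold in KCs and 2.37-fold in AMs, against 0.0789-fold in microglia.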

How the results depend on the processing

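In microglia, the log2 ratios of the 7 genes kept their sign under another pseudocount (0.1 or 5), TMM factors, all barcodes clusters of other cell types kept, and without the 12 Zeb2KO cells of WT clusters (an alternative chosen after seeing the data), with 42 values between -6.91 and -3.10. At a pseudocount of 5 or a floor of 50 CPM, 1 gene of the 7 in CMs was at least 2-fold lower, in place of 2 at the settings of the report, and at a floor of 5 CPM 1 was in AMs, in place of 0. TMM factors moved the ratios in AMs upwards, that of Pmp22 from 1.52 to 1.75 and that of Sox4 from -2.03 to -1.91. The ratio of Sox4 in KCs ran from -0.36 to 0.07 and was above 0 with all barcodes or with the clusters of other cell types kept. The shares of cells with a UMI moved with the depth to which cells were thinned, for Ecscr in WT microglia from 34.9% at 1000 UMIs to 76.8% without thinning.

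The test over the 4 pairs called 311 genes with DESeq2, 4 without a filter, 2 with both WT liver libraries and 0 to 1 with 1 pair left out (1 without the spleen pair), against 0 in edgeR as reported. DESeq2 called 1 of the 7 genes (Sox4) and no other setting called any. The adjusted p of Sox4 ran from 0.0079 (DESeq2) to 0.797 (without the spleen pair) in fits with the tissue block, and its log2 change from -2.52 to -1.53 with 1 pair left out. The fit without the tissue block called 0 genes. With 1 library per tissue and genotype, the spread between mice is unknown, and genes under 20 CPM outside the brain limit what can be compared.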
